A study of Homo sapiens with 6 samples.

Results

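Prostate-associated antigens of the cell surface and the 4 STEAP genes were followed across all libraries of the series, 9 genes (FOLH1, TMPRSS2, SLC45A3, STEAP1, STEAP2, STEAP3, STEAP4, PSCA and TRPM8) of 37923 in the count table, matched by gene symbol. They were chosen with their values in these libraries already known, so their levels and differences are given as a description, with no test of their own. The series has 6 RNA-seq libraries of cells labelled RKO, an established human colorectal carcinoma line: 3 libraries named Control and 3 named ENZ, for which the series design states treatment with A3, a degrader of the chromatin enzyme LSD1, and RNA extraction 48 h later. The sources used here do not say what the Control cells received, what the letters ENZ stand for or what separated the replicates, which the design calls biological. Any p-value therefore measures only the spread between these libraries. Library totals ran from 26691289 to 30025543 counts, so that the 3 counts a listed 0 still allows correspond to a level of 0.0999 to 0.112 CPM (counts per 1000000 of the library total), for counting error alone.

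As background, FOLH1 encodes prostate-specific membrane antigen, a surface peptidase that trims glutamates from folates and peptides and is a target of prostate cancer imaging and radioligand therapy. TMPRSS2 encodes a surface serine protease, and SLC45A3 (prostein) a sugar transporter family protein. Both are known as androgen-induced genes of the prostate, and their promoter regions are recurrent partners in gene fusions with ETS factors. The STEAP genes encode membrane proteins with several membrane-spanning helices that bind haem. STEAP2, STEAP3 and STEAP4 reduce iron and copper at the cell surface or in endosomes, whereas STEAP1 lacks the domain that takes electrons from NADPH. PSCA encodes a small surface protein held by a lipid anchor, and TRPM8 a cold-sensing and menthol-sensing cation channel of prostate epithelium and sensory neurons.

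The marker genes went against the tissue on the label. Of 16 prostate luminal markers analysed here, 14 had a mean of at least 1 CPM and 10 a mean of at least 10 CPM, and their summed level was 2699 to 2724 CPM in Control and 2808 to 2866 CPM in ENZ. No member is in that list. Of 16 colorectal epithelial markers, 3 had a mean of at least 1 CPM, and the sum was 67.4 to 70.1 CPM in Control and 89.4 to 92.8 CPM in ENZ. CDX1, KRT20 and GPA33 stood at 0 in most libraries and did not exceed 0.0748 CPM in any. Basal prostate, fibroblast, endothelial and leukocyte lists summed to at most 2.36, 13.4, 0.810 and 1.96 CPM. The neuroendocrine list summed to at most 84.4 CPM, nearly all from SYP. The libraries are named below only by their labels, Control and ENZ, and whether these cells are RKO was not tested. In bulk RNA, fewer cells with a transcript and less of it per cell cannot be told apart.

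FOLH1 was the most abundant of the 9 genes in CPM and was higher in ENZ. It had 629.9, 623.6 and 623.3 CPM in the Control libraries and 861.9, 850.7 and 858.2 CPM in the ENZ libraries. The groups lay far apart against SDs of 3.69 and 5.71 CPM. The log2 fold change of ENZ over Control was 0.49 ± 0.03 (SE), a 1.40-fold difference, and it was 0.62 when offsets for GC content and transcript length were fitted. FOLH1 lies on chromosome 11 from 49145092 to 49208638 (GRCh38, minus strand). Its near copy FOLH1B, annotated as a transcribed pseudogene on the same chromosome (89639237 to 89698599), had 32.7, 29.9 and 29.1 CPM in Control and 38.9, 46.6 and 46.3 CPM in ENZ. Of the 150-base windows of the longest FOLH1 transcript, 8.08% occur letter for letter in a FOLH1B transcript, and 26.1% of the 50-base windows do. Reads from such stretches cannot be told apart by sequence, and the sources used here do not say how they were counted. On the log2 scale FOLH1B rose by 0.56 ± 0.07 (adjusted p = 6.13e-06), and the FOLH1 level per length was 9.59 ± 0.516 times that of FOLH1B in Control and 9.19 ± 1.02 times in ENZ (SD, n = 3).

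TMPRSS2 was low and higher in ENZ. It had 7.91, 6.11 and 6.18 CPM in Control and 11.2, 10.9 and 11.2 CPM in ENZ. The highest Control library, replicate 1, stayed below every ENZ library. The log2 fold change was 0.75 ± 0.10 (SE), or 1.68-fold. TMPRSS2 lies on chromosome 21 from 41464300 to 41531116 (GRCh38, minus strand), and its annotated end overlaps that of the interferon-induced gene MX1 (41420020 to 41470071). The library kit keeps no record of strand, so reads from the overlap cannot be assigned.

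SLC45A3 and the STEAP genes were lower in ENZ. The stretches before the annotated starts of SLC45A3, STEAP1, STEAP2 and STEAP4 are shown because these 4 differed most, all in the same direction. Each is the 250 bases before the RefSeq start (GRCh38.p14), 5′ to 3′ on the gene's strand, and capitals mark GGGCGG, the core of the GC box bound by SP1-type factors, or its reverse complement CCGCCC.
SLC45A3, chr1:205680510-205680759, minus strand: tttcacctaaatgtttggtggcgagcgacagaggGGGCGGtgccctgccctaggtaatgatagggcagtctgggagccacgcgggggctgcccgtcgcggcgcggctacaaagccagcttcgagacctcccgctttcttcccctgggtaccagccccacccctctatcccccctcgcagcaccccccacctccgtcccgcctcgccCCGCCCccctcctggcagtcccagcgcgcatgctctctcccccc
STEAP1, chr7:90154219-90154468, plus strand: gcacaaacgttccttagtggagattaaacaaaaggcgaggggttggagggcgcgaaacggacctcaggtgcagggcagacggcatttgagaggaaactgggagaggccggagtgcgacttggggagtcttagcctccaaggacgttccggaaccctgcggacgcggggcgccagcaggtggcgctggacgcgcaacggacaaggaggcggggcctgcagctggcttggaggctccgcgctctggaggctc
STEAP2, chr7:90211490-90211739, plus strand: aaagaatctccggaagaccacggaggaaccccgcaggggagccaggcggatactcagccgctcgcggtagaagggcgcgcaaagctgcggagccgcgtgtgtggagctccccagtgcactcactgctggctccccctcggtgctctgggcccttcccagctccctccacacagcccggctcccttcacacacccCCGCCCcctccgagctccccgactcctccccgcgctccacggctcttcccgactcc
STEAP4, chr7:88306895-88307144, minus strand: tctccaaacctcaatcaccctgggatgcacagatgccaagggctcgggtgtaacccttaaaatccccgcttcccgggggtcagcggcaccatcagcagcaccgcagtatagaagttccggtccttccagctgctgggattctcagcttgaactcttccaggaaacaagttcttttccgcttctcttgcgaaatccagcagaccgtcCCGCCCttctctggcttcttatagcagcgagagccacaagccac
Besides this core, the windows were searched on both strands for a single arm of the androgen response element (AGAACA). They were also searched for the full palindromic element, which contains that arm, and for the core bound by forkhead factors (TGTTTAC). The GC box core matched in SLC45A3 (2 matches), STEAP2 (1) and STEAP4 (1) and was not found in the STEAP1 window. It occurs in 42.6% of 35116 RefSeq windows of this length. The single arm, held by 12.4% of all windows, the forkhead core, held by 2.98%, and the full element, held by 0.00285%, were not found in any of the 4. The windows were 69.2%, 64.4%, 69.6% and 55.6% G or C in the order printed, against a median of 58% over all windows. STEAP2 has a second RefSeq start, at 32.8% G or C in its window, which holds 1 match to the forkhead core, and its GENCODE gene begins upstream of both, at 90167590. In the table used, 6 of the 9 genes had a window, and FOLH1, TMPRSS2 and PSCA did not.

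SLC45A3 had the largest difference among the members above 10 CPM. It had 75.6, 74.2 and 73.5 CPM in Control and 21.3, 23.7 and 22.7 CPM in ENZ. The Control libraries were all above the ENZ libraries by a wide margin. The log2 fold change was −1.69 ± 0.05 (SE), a 3.22-fold lower level. The gene lies on chromosome 1 from 205657851 to 205680509 (GRCh38, minus strand).

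STEAP1, the member without a reductase domain, had 228, 215 and 215 CPM in Control and 98.4, 91.9 and 85.5 CPM in ENZ. The log2 fold change was −1.22 ± 0.05 (SE), a 2.33-fold lower level. The groups did not overlap. STEAP2, which lies beside it and encodes an iron and copper reductase, had 284, 258 and 280 CPM in Control and 139, 133 and 121 CPM in ENZ. Its log2 fold change was −1.03 ± 0.05 (SE), a 2.04-fold lower level, again without overlap. The near copy STEAP1B was almost silent, with at most 13 counts in a library against at least 2459 for STEAP1, and no 150-base window of the longest STEAP1 transcript occurs in a STEAP1B transcript, although 23.8% of the 50-base windows do. The antisense gene STEAP2-AS1 had at most 5 counts in a library. It overlaps STEAP1 and part of STEAP2, and reads from the overlap cannot be assigned, so its own level is not known there. Over 18538 tested genes the log2 fold change was correlated with transcript GC content (Spearman's rho 0.34, across genes, which are not independent replicates), and the transcripts of STEAP1 and STEAP2 are 40.0% and 36.6% G or C. With offsets for GC content and length their log2 fold changes were −0.98 and −0.82.

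STEAP4, a reductase known from fat and inflammation, was the lowest of the family and had the largest relative difference. It had 3.47, 2.65 and 2.14 CPM in Control and 0.633, 0.486 and 0.374 CPM in ENZ. The ENZ values rest on 19, 13 and 11 counts. The log2 fold change was −2.42 ± 0.25 (SE), a 5.36-fold lower level, with a 95% interval from −2.95 to −1.90. STEAP3, the endosomal reductase that prepares transferrin-borne iron for export, differed least. It had 16.2, 16.9 and 17.6 CPM in Control and 13.1, 13.1 and 14.7 CPM in ENZ. The log2 fold change was −0.28 ± 0.08 (SE), or 1.21-fold lower, and the lowest Control library was above the highest ENZ library. STEAP3-AS1 had between 3 and 8 counts in a library, but it overlaps STEAP3, and reads from the overlap cannot be assigned. STEAP3 lies on chromosome 2 from 119223831 to 119265652, away from the other 3, which lie on chromosome 7 (GRCh38).

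PSCA and TRPM8 were at or near background. PSCA had 6, 7 and 11 counts in Control and 12, 6 and 9 in ENZ, or 0.294 ± 0.105 and 0.310 ± 0.0878 CPM (SD, n = 3). The groups overlapped, and the gene was below the expression filter, so no difference was detectable at this depth. PSCA also overlaps JRK (142657460 to 142681968), which had 41.2 and 42.3 CPM, and reads from the overlap cannot be assigned. TRPM8 had 1 count in all, in Control replicate 3, and 0 in the other 5 libraries, which allows up to 3 counts in each. PSCA lies on chromosome 8 from 142670308 to 142682725 and TRPM8 on chromosome 2 from 233917373 to 234019522 (GRCh38).

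**Figure D1:**
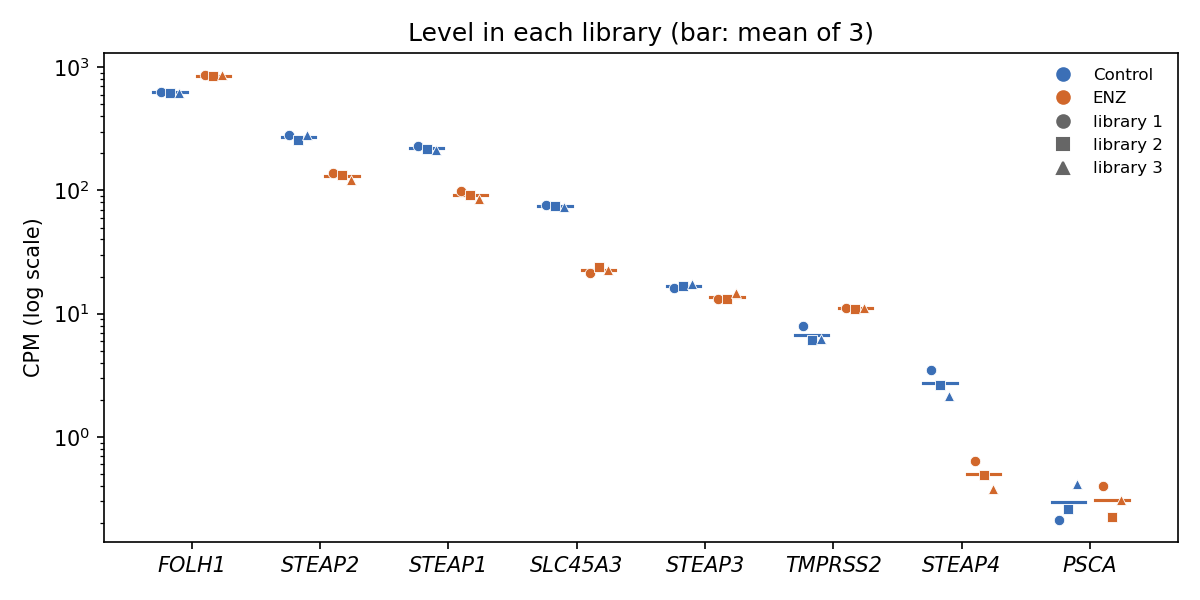
Level of 8 members in each library, in CPM on a log axis, with Control in blue, ENZ in orange, a symbol per library and a bar at the mean of 3. FOLH1 and TMPRSS2 are higher in ENZ, SLC45A3 and the 4 STEAP genes lower, and the PSCA groups overlap; TRPM8, with 1 count in all, is not drawn.

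All 7 members that passed the expression filter were called at an adjusted p under 0.05 by edgeR, where 39.8% of the 18581 tested genes were. Of these, 2 were higher and 5 lower, and 20.5% and 19.3% of tested genes were called in those directions. In 7 of the 9 members the groups did not overlap in CPM, as in 49.2% of tested genes. A call with a log2 fold change under −1 was made for 4 members and for 2.24% of tested genes, and one over 1 for 0 members and 0.737% of tested genes. The members were chosen with this contrast in view, and nothing is read from these counts. Each tested member kept its direction in the 14 alternative settings.

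Per length, the order of the members differed between the groups. The deposited FPKM, read levels divided by gene length and library total, placed STEAP1 first in Control at 142 ± 4.95 and FOLH1 second at 117 ± 0.692 (SD, n = 3), ranks 197 and 256 among the 37923 genes. In ENZ the order was FOLH1 at 161 ± 1.07 and STEAP1 at 59.6 ± 4.20, ranks 174 and 688 (both n = 3). In both groups STEAP2, SLC45A3, STEAP3 and TMPRSS2 followed in that order. STEAP2 stood at 31.4 FPKM in Control and 15.0 in ENZ, SLC45A3 at 19.8 and 6.02, STEAP3 at 3.71 and 2.99, and TMPRSS2 at 1.02 and 1.68. Neighbours in the order did not overlap over the 3 libraries of a group, except STEAP4 (0.245 FPKM) and PSCA (0.167 FPKM) in Control. Without the division by length FOLH1 was first in both groups and STEAP2 was above STEAP1, since the length behind the deposited FPKM is 1544 bases for STEAP1 and 8720 bases for STEAP2.

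**Figure D2:**
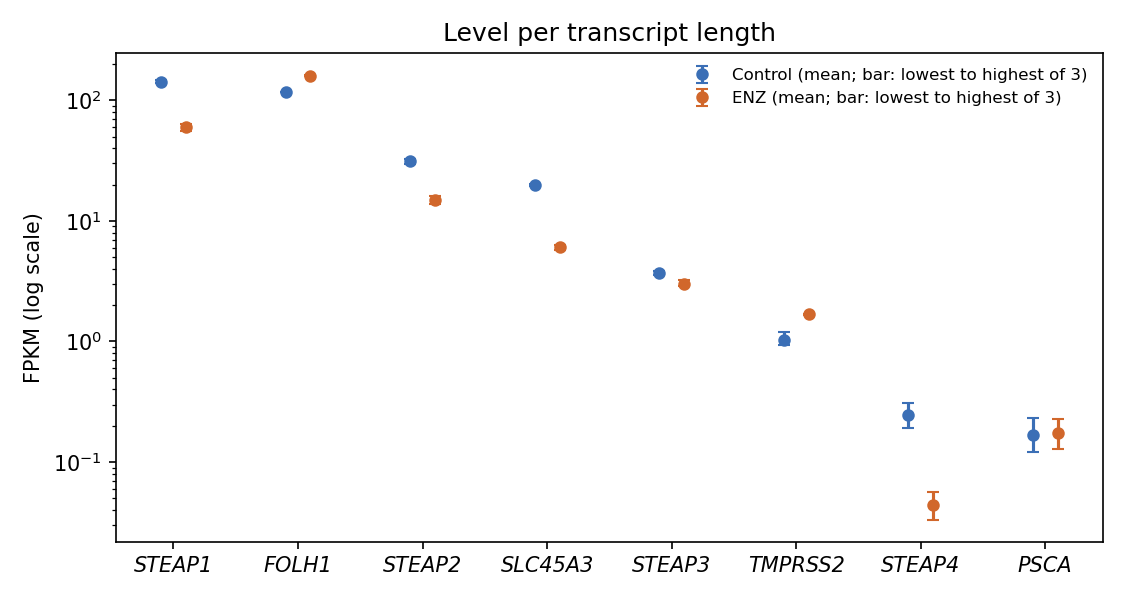
Mean FPKM of 8 members on a log axis, with bars from the lowest to the highest of 3 libraries, Control in blue and ENZ in orange. STEAP1 is above FOLH1 in Control (142 against 117 FPKM) and below it in ENZ (59.6 against 161 FPKM).

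Ratios within a library, which need no scaling between libraries, showed the same shift in the balance of the antigens. FOLH1 per SLC45A3 was 5.86, 5.91 and 5.97 in Control and 28.4, 25.2 and 26.6 in ENZ. FOLH1 per STEAP1 was 0.799, 0.839 and 0.841 in Control and 2.53, 2.68 and 2.91 in ENZ. Both ratios were well separated between the groups. FOLH1 per TMPRSS2, by contrast, was 98.4, 126 and 125 in Control and 95.1, 96.6 and 95.0 in ENZ, and the lowest Control library lay close to the ENZ libraries. STEAP2 per STEAP1 was 0.221 ± 0.00949 in Control and 0.252 ± 0.00311 in ENZ, a small difference that exceeded the range within each group. The summed FPKM of the 4 STEAP genes was 177 ± 5.98 in Control and 77.6 ± 5.10 in ENZ. STEAP1 supplied 80.1% of it in Control and 76.7% in ENZ, STEAP2 17.7% and 19.3%, STEAP3 2.09% and 3.87%, and STEAP4 0.137% and 0.0565%.

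**Figure D3:**
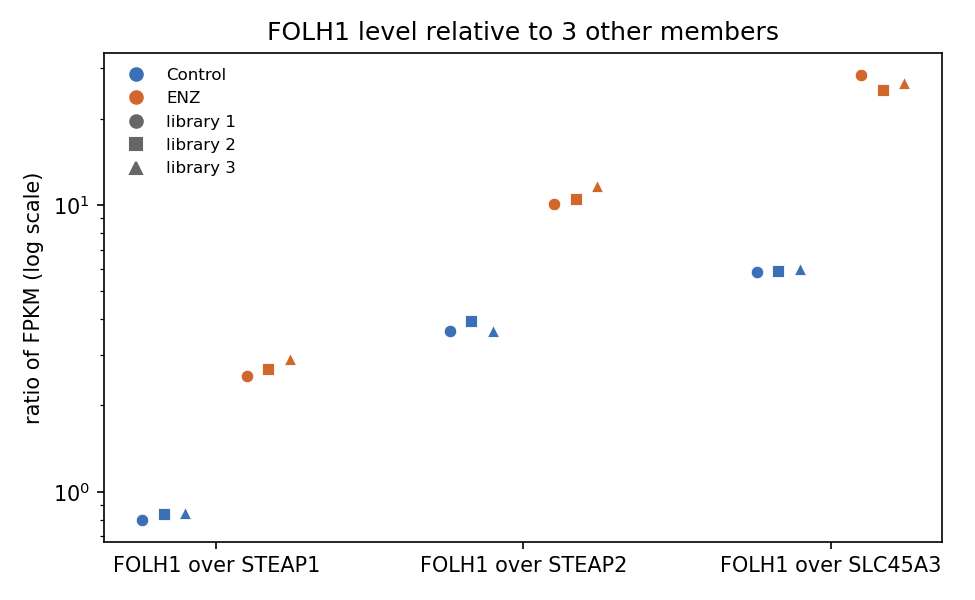
Ratio of FOLH1 FPKM to the FPKM of STEAP1, STEAP2 and SLC45A3 in each library, on a log axis. In all 3 pairs the ENZ libraries (orange) lie above the Control libraries (blue), by 3.28-fold, 2.87-fold and 4.52-fold in the ratio of group means.

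Genes beside STEAP1 and STEAP2 fell as well. These neighbours were chosen by position after the member values were known, as tested genes with a mean of at least 1 CPM. All 5 that start between STEAP1 and 250 kb past STEAP2 were called lower (19.3% of all tested genes were), and all 5 were called in each of the 14 alternative settings. CFAP69, a gene of the cilium and sperm tail that begins 7.04 kb past STEAP2, had 23.8, 20.6 and 24.1 CPM in Control and 11.2, 8.30 and 8.61 CPM in ENZ (log2 fold change −1.25 ± 0.10 SE; adjusted p = 1.37e-08). The long noncoding RNA ENSG00000234459, which lies inside CFAP69 (90266034 to 90270216 within 90245174 to 90311063, GRCh38), fell by 1.34 ± 0.27 (adjusted p = 3.60e-04), but its reads and those of CFAP69 are not separable where they overlap. Farther out the falls were smaller: −0.40 ± 0.07 for GTPBP10, which encodes a GTP-binding protein (adjusted p = 2.79e-04), −0.50 ± 0.04 for the claudin gene CLDN12 (adjusted p = 6.08e-09) and −0.42 ± 0.05 for the cyclin-dependent kinase gene CDK14 (adjusted p = 1.89e-06). GTPBP10 and CLDN12 overlap each other, as do CLDN12 and CDK14. With GC and length offsets these 5 were −1.01, −0.96, −0.16, −0.30 and −0.32 in the order named.

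In the rest of the stretch, from 1 Mb before STEAP4 to 2 Mb past STEAP2, 8 of 14 genes other than the members fell, 1 rose and their median was −0.26 on the log2 scale. Over chromosome 7 as a whole, 26.2% of 817 genes at 1 CPM fell and the median was −0.02. The falls included CROT, a peroxisomal carnitine acyltransferase (−0.77), the replication kinase subunit DBF4 (−0.47), the WNT receptor gene FZD1 (−0.29), the scaffold gene AKAP9 (−0.68) and KRIT1 (−0.57). The other falls were TP53TG1 (−0.22), ADAM22 (−0.24) and MTERF1 (−0.28). Their calls were lost with GC and length offsets (adjusted p = 0.297, 0.156 and 0.438). ADAM22 also lost its call without ENZ replicate 2 (adjusted p = 0.0506). TP53TG1 lost its call in DESeq2 (adjusted p = 0.0614) and on leaving out any library except ENZ replicate 1. The rise was SRI, a calcium-binding protein next to STEAP4, by 0.13 (adjusted p = 0.0202). That call was lost without Control replicate 1, Control replicate 3 or ENZ replicate 2 (adjusted p = 0.086, 0.0698 and 0.0845) and on library totals alone (adjusted p = 0.0731). With GC and length offsets 5 of the 14 fell.

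**Figure D4:**
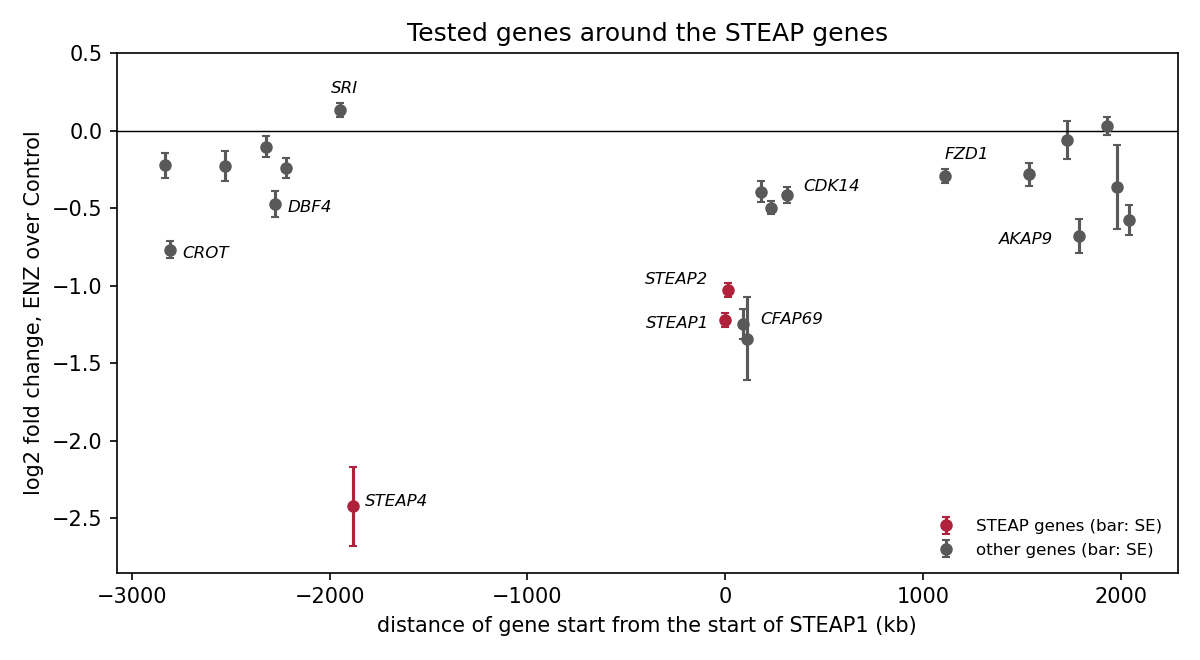
Log2 fold change of ENZ over Control (bars, SE) of the tested genes around the STEAP genes on chromosome 7, against the distance of each gene's start from that of STEAP1 in kb. STEAP2 lies at −1.03, CFAP69 at −1.25, CDK14 at −0.42, and STEAP4, on the left, at −2.42 with SRI beside it at 0.13.

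Near the other members the neighbours went different ways. Counted beside a member were tested genes with a mean of at least 1 CPM within 250 kb. The nearest such gene on each side was also counted, at any distance. Over all tested genes 20.5% were called higher and 19.3% lower, and nothing is read from the counts beside a member. All 3 genes beside TMPRSS2 rose: BACE2, a membrane protease of the amyloid-precursor cleaving type, by 1.12 ± 0.06 from 20.6 to 43.6 CPM (adjusted p = 2.38e-12), MX1 by 0.78 ± 0.13 (adjusted p = 8.04e-05) and the kinase gene RIPK4 by 0.36 ± 0.09 (adjusted p = 0.00185). MX1 overlaps TMPRSS2, and its reads are not separable from those of TMPRSS2 where they overlap. Beside SLC45A3, 3 of 7 fell. ELK4, an ETS factor gene 25.8 kb past its end that is known to form read-through transcripts with SLC45A3, fell by 0.36 ± 0.06 (adjusted p = 5.39e-04), from 142 to 108 CPM. The smaller falls were −0.10 for NUCKS1 (adjusted p = 0.0305) and −0.16 for the magnesium transporter gene SLC41A1 (adjusted p = 0.0151). The NUCKS1 call was lost in DESeq2 (adjusted p = 0.0557) and on leaving out Control replicate 1 or 3 or ENZ replicate 2 or 3 (adjusted p = 0.108 to 0.149), and it turned to a called rise of 0.07 with GC and length offsets (adjusted p = 0.0318). The SLC41A1 call was lost without Control replicate 1 or 2 or ENZ replicate 2 (adjusted p = 0.0569 to 0.0679). Beside STEAP3, 2 of 3 fell. DBI, an acyl-CoA binding protein, fell by 1.25 ± 0.04, from 136 to 55.9 CPM (adjusted p = 1.49e-15). C2orf76 fell by 0.35 ± 0.11 (adjusted p = 0.0123), a call lost with GC and length offsets and without Control replicate 1 or ENZ replicate 2 (adjusted p = 0.129, 0.0574 and 0.0526). INSIG2, at a distance of 1113 kb, stood at −0.11 (adjusted p = 0.332). Beside PSCA, 3 of 4 rose: ADGRB1, an adhesion receptor gene, by 0.93 ± 0.24 (adjusted p = 0.00309), THEM6 by 0.30 ± 0.07 (adjusted p = 8.97e-04) and LYNX1 by 1.22 ± 0.15 (adjusted p = 1.86e-06). Beside FOLH1, 1 of 2 rose, the phosphatase gene PTPRJ by 0.19 ± 0.05 (adjusted p = 0.00641) at a distance of 974 kb. Beside TRPM8, 1 of 3 fell, the centromere chaperone gene HJURP by 0.19 ± 0.05 (adjusted p = 0.00516), a call lost without Control replicate 2 (adjusted p = 0.0586).

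Relatives of the members were read from lists that had been written with earlier results of the series known. Their counts stand against 20.5% of all tested genes called higher and 19.3% called lower, and nothing particular to a list is read from them. Among 9 tested relatives of FOLH1 and genes of folate handling, 2 rose and 2 fell, with a median log2 fold change of −0.11 against −0.01 over all tested genes. TFRC, the transferrin receptor and a distant structural relative of FOLH1, fell by 0.58 ± 0.03 (adjusted p = 5.11e-12). The proton-coupled folate transporter SLC46A1 rose by 0.26 ± 0.09 (adjusted p = 0.0183), and GGH, which removes glutamates from folates in the lysosome, fell by 0.19 ± 0.06 (adjusted p = 0.0115). Neither call held in every setting. SLC46A1 lost its call without Control replicate 3 or ENZ replicate 2 (adjusted p = 0.13 and 0.0698) and with GC and length offsets (adjusted p = 0.0697). GGH lost it without Control replicate 1 or 3 (adjusted p = 0.092 and 0.0752), and its value with the offsets was 0.03 (adjusted p = 0.667). Each loss left 1 rise or 1 fall in the list where a library was left out.

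Among 6 tested surface serine proteases related to TMPRSS2 and their inhibitors, 2 rose and 1 fell, with a median of 0.13. The protease inhibitor SPINT2 rose by 0.29 ± 0.04 (adjusted p = 1.43e-05) and hepsin, HPN, by 0.39 ± 0.07 (adjusted p = 8.20e-05), while TMPRSS9 fell by 0.61 ± 0.13 (adjusted p = 8.51e-04). Without Control replicate 3, 2 genes of the list fell. Of 10 substrates and partners, 4 rose and 4 fell (median 0.15). The rises were in the proprotein convertase FURIN (0.64 ± 0.04, adjusted p = 1.61e-11), in the sodium channel subunit SCNN1A (0.33), in prostasin, PRSS8 (0.62), and in HGF (0.17). The HGF groups overlapped, with ENZ replicate 3 at 270 CPM below Control replicate 3 at 276 CPM. The falls were in SCNN1B (−1.18 ± 0.22, adjusted p = 2.14e-04), SCNN1G (−1.26), the HGF receptor MET (−0.37) and the protease-activated receptor F2RL1 (−0.25). Thus the 3 sodium channel subunits split, at 116 and 142 CPM in Control and ENZ for SCNN1A against 2.31 and 0.991 CPM for SCNN1B. HGF, SCNN1G, MET and F2RL1 stand outside the naming rule and were named after their values were seen.

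Of 10 tested SLC45 and other sugar transporters, 2 rose and 3 fell (median −0.05). SLC50A1 rose by 0.30 ± 0.04 (adjusted p = 2.11e-06) and SLC2A12, a glucose transporter known in prostate, by 0.35 ± 0.05 (adjusted p = 3.50e-06). SLC2A10 fell by 0.18 ± 0.05 (adjusted p = 0.0109), a call lost without Control replicate 1 or ENZ replicate 2 (adjusted p = 0.0691 and 0.0528). The other falls were in genes with under 1 CPM, named after their values were seen: SLC2A3 (0.762 CPM in Control and 0.0338 in ENZ) and SLC45A2 (0.439 and 0.177 CPM), whose call was lost in 7 of 14 settings. Of the closer relatives of SLC45A3, SLC45A1 stood at 0.20 (adjusted p = 0.192) and SLC45A4 at 0.02 (adjusted p = 0.86) on the log2 scale. Without Control replicate 1, 1 gene of the list fell.

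Of 14 tested haem-bearing reductases and metal carriers, 3 rose and 2 fell (median 0.07), shares close to or below those over all tested genes. SLC39A8, a zinc and iron importer, fell by 0.97 ± 0.04 (adjusted p = 4.65e-14), from 158 to 79.0 CPM, and the ferric reductase FRRS1 by 0.36 ± 0.06 (adjusted p = 1.09e-04). CYB561, a haem-bearing ascorbate-driven reductase, rose by 0.24 ± 0.04 (adjusted p = 3.08e-05), the copper importer SLC31A1 by 0.20 ± 0.04 (adjusted p = 1.52e-04), and CYB561D1, named after its value was seen, by 0.25. SLC11A2, which carries the reduced iron out of the endosome, had 88.5 CPM in Control and 89.9 CPM in ENZ (log2 fold change 0.06, adjusted p = 0.302). Without ENZ replicate 1, 5 genes of the list rose, and with GC and length offsets 5 rose and 4 fell.

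In the family of PSCA, 4 of 7 tested genes rose and 1 fell (median 0.25). LYNX1, 88.5 kb from PSCA and known to modulate nicotinic receptors, rose by 1.22 ± 0.15 (adjusted p = 1.86e-06), from 1.94 to 4.44 CPM. CD59, the inhibitor of the complement attack complex, rose by 0.25 ± 0.05 (adjusted p = 7.16e-04), and LY6E by 0.61 ± 0.17 (adjusted p = 0.00757). LYPD6B, named after its value was seen, rose by 1.07 (adjusted p = 0.0153) and LYPD6 fell by 0.38 ± 0.12 (adjusted p = 0.0122). Without Control replicate 1 the calls of LY6E, LYPD6B and LYPD6 were lost (adjusted p = 0.0582, 0.0888 and 0.0657), leaving 2 rises and 0 falls; LYPD6B also lost its call without ENZ replicate 2 or 3 (adjusted p = 0.0634 and 0.0561). The LYPD6 call was lost with GC and length offsets too (−0.27, adjusted p = 0.0597), which left 0 falls. Of 3 tested TRPM channels, TRPM4, a sodium-permeable channel known in prostate, rose by 0.20 ± 0.04 (adjusted p = 5.35e-04; 112 to 126 CPM), a call lost with GC and length offsets (0.05, adjusted p = 0.286). With these offsets 1 channel of the list was still called higher, and it was not TRPM4. TRPM2 and TRPM7 stood at 0.11 and 0.03 (adjusted p = 0.14 and 0.839), and without ENZ replicate 1, 2 of the 3 rose.

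Other surface antigens that are targeted in carcinomas moved in both directions. Of 24 such genes tested, 8 rose and 8 fell, with a median of −0.01. Tissue factor, F3, fell by 1.57 ± 0.11 (adjusted p = 1.72e-10), from 12.2 to 3.99 CPM, and the zinc transporter SLC39A6, a breast cancer antigen, by 0.45 ± 0.04 (adjusted p = 2.46e-09). ERBB3, a growth factor receptor, rose by 0.39 ± 0.04 (adjusted p = 7.04e-08). EPCAM, at 70.7 and 65.0 CPM, and CD276, at 97.0 and 88.4 CPM, had adjusted p of 0.18 and 0.12.

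**Figure D5:**
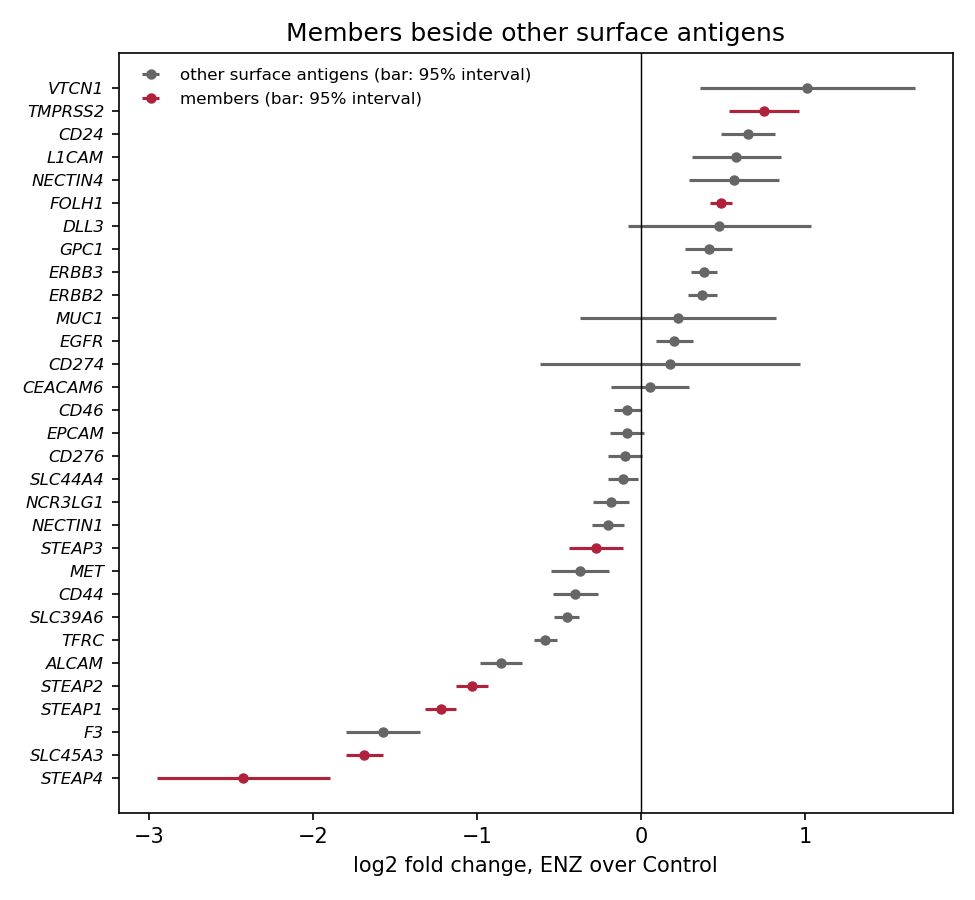
Log2 fold change of ENZ over Control with its 95% interval for the 7 tested members (red) and 24 other surface antigens (grey). STEAP4 at −2.42 and SLC45A3 at −1.69 lie at the low end beside F3 at −1.57, while TMPRSS2 at 0.75 and FOLH1 at 0.49 lie above 0.

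The genes whose pattern over the 6 libraries was closest to that of a member were found by Euclidean distance of log2 CPM centred on the Control mean, among 10235 genes with a mean of at least 10 CPM. The distance is dominated by the difference between the groups. Closest to FOLH1 were EPS8L2 (distance 0.0353) and ATP9A (0.0572), and closest to TMPRSS2 were CHAC1 (0.20) and CDK5R2 (0.201). Closest to SLC45A3 were DOCK8 (0.194) and FOXD4 (0.202), which lie near each other at the end of chromosome 9, and closest to STEAP1 were MALT1 (0.0713) and LUM (0.101). For STEAP2 they were 2 long noncoding RNAs without a symbol, ENSG00000277701 (0.095) and ENSG00000264334 (0.115).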

How the data were processed

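RNA-seq of 6 libraries (3 Control, 3 ENZ, grouped by sample title) was analysed. The deposited table holds raw counts and FPKM for each gene, made by the authors. HISAT2 2.0.5, HTSeq 0.6.1, DESeq2 1.20.0 and GRCh38 are listed in the submitters' processing notes. The sources used here do not give the annotation, strand setting or filters. Per the labels' protocols, poly(A) RNA was made into libraries with a kit that does not mark strand. CPM are counts scaled to the library total. Counts of all genes were fitted with edgeR 4.0.16 (R 4.3.3; TMM, default expression filter, robust quasi-likelihood F test). P-values were Benjamini-Hochberg adjusted over 18581 genes, and calls made at 0.05. The SE was derived from the log2 fold change and F. The fit was tested on simulated data. Of 100 genes given a log2 change of 0.5 in either direction it recovered 65%, and of 100 given a change of 1, 84%. It called 0.11% of the unchanged genes. Positions are from GENCODE 44, promoter windows from RefSeq (GRCh38.p14).

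The members, lists and neighbours were chosen with earlier results of these data known. Named genes were the members, up to 4 called genes with the smallest p and at least 1 CPM per list, the 2 genes most like each of 5 members, and near copies. Neighbours, other list genes named beside a count, EPCAM, CD276, SLC11A2, SLC45A1, SLC45A4, TRPM2 and TRPM7 were named after their values were seen. Some single marker genes are not reported here. Alternatives were DESeq2 1.42.0, limma-voom (limma 3.58.1), other scalings and filters, a replicate block, GC and length offsets (natural splines, 4 degrees of freedom each) and each library left out. Within a group, libraries differed by more than sampling noise (chi-square per degree of freedom 1.93 to 6.15), so each counted as 1 replicate.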

Additional observations from a re-analysis of the deposited data

How the results depend on the processing

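All 7 tested members kept their direction in the 14 alternative settings. FOLH1 ranged from 0.45 to 0.62, TMPRSS2 from 0.69 to 0.88, SLC45A3 from −1.79 to −1.64, STEAP1 from −1.26 to −0.98, STEAP2 from −1.07 to −0.82, STEAP3 from −0.37 to −0.24 and STEAP4 from −2.63 to −2.22. Counts of called genes over the whole table stayed within 1.5 times those reported, from 3041 to 4894 higher and from 2782 to 4104 lower. With GC and length offsets, 1 gene of the FOLH1 and folate list rose, 5 of the reductase and carrier list rose and 4 fell, 2 of the protease list fell, 0 of the PSCA family fell, and 5 in the rest of the STEAP stretch fell; GGH turned to 0.0344 and NUCKS1 to 0.0723. The cause was not tested. Leaving out each library in turn gave 1 to 2 rises in the FOLH1 and folate list, 3 to 5 rises among reductases and carriers, 2 to 4 rises in the PSCA family, 1 to 2 rises among TRPM channels, 1 to 2 falls in the FOLH1 and folate list, 1 to 2 falls among proteases, 1 to 3 falls among sugar transporters and 0 to 1 falls in the PSCA family. Of 1302 comparisons over 93 other genes, 1250 kept direction and call, 49 lost the call, 1 gained it and 2 reversed. With the replicate number as a block, 3832 genes were higher and 3634 lower and the 7 member calls were unchanged; same-numbered libraries did not deviate together (correlations 0.0181, −0.012 and −0.0459), so the numbers are not taken as pairs. The order per length was the same in TPM; with CPM per kb of the longest transcript, chosen after seeing the data, PSCA was above STEAP4 in Control. Depth limits PSCA and TRPM8, and STEAP4 in ENZ.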
